A study of Homo sapiens with 17 samples.

Results

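The 10 genes described here encode lumenal chaperones of the endoplasmic reticulum (ER) and the sensors and effectors of the unfolded protein response (UPR). They were taken by name: HSPA5, HSP90B1, DNAJB9, SDF2L1, PDIA4, CALR, HERPUD1, XBP1, ERN1 and ATF6. All 10 were found among the 19222 genes of the 1 h experiment. The study asked how an inhibitor of translation elongation, emetine, changes the making and the decay of RNA. Wild-type HEK-293T cells, a line derived from human embryonic kidney, were left untreated or were given 1.8 µM emetine for 1 h, with 500 µM 4-thiouridine (s4U) in both groups (3 libraries each). A single untreated and a single emetine library were made without s4U. In a 2 h experiment with 250 µM s4U, 3 libraries each were untreated, given 1.8 µM emetine or given 240 µM emetine. Only the mean level over all 9 of these 2 h libraries was used. The labels number the libraries of a group but do not say whether they came from separate cultures, so p-values measure the spread between these libraries.

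In TimeLapse-seq (TL-seq), s4U taken up into RNA is chemically recoded, and RNA made during the labeling reads as T-to-C conversions. The fraction new is the share of a gene's reads that came from such RNA. A library's level of a gene, in counts per 1000000 gene reads (CPM, TMM-scaled), was split by its fraction new into newly made and pre-existing RNA. Pre-existing RNA here is all RNA not read as new. The 8 libraries held 27416189 to 48852046 reads, 81.1% to 82.3% of them in genes. Conversions were found at 0.802% to 1.06% of T positions with s4U and at 0.0504% and 0.0521% without it. Emetine replicate 3 stood apart in the level of genes, with an SD of 0.263 (log2) around its group mean against 0.0905 to 0.158 in the other 5 libraries with s4U. Its deviations ran with transcript length (Spearman 0.764 across 10763 genes, which are not independent). Deviations from a group mean sum to 0 over its 3 libraries. The opposite values of emetine replicates 1 and 2 (-0.691 and -0.687) are therefore not separate observations. Untreated replicate 1 had the lowest median fraction new, 9.26%, and untreated replicate 3 the highest, 14.7%, with 10.3% to 11% in the emetine libraries. NEFM, a neurofilament gene that HEK-293T cells express, was present in all 6 libraries with s4U at 141 to 206 CPM. KRT18, a keratin of epithelial cells, stood at 36.5 to 58.1 CPM, KRT8 at 4.13 to 6.84, and the kidney factors PAX2 and LHX1 at 1.17 to 4 CPM. Of the markers of other cell types, PTPRC, CD3E and INS (blood and pancreas) had no row, ALB, APOA1 and DCN (liver and fibroblast) stood at 0 to 0.347 CPM, and COL1A1, a fibroblast collagen, at 19.4 to 27.5 CPM in every library.

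The UPR adjusts the folding capacity of the ER to its load. HSPA5 (BiP) binds unfolded chains and also holds the lumenal parts of the sensors IRE1, encoded by ERN1, and ATF6. When unfolded proteins build up, IRE1 splices the XBP1 message to give an active transcription factor, and ATF6 is cut in the Golgi to release another. Both act with the CCAAT-binding factor NF-Y on promoter elements, the ER stress response elements, of chaperone and degradation genes. The third sensor, PERK, phosphorylates eIF2 and favors translation of ATF4. Gene-level read counts do not separate spliced from unspliced XBP1, and they do not show the cutting of ATF6.

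The ER stress response elements tie several of these genes together, so the stretches that hold them are shown first. The ER stress response element (ERSE) was searched as CCAAT, 9 bases of any kind and CCACG, and the second element (ERSE-II) as ATTGG, 1 base of any kind and CCACG, on both strands, in windows from 250 bases before to 50 after the RefSeq start site (GRCh38.p14). ERSE was found in 22 of 27305 promoters (0.0806%) and ERSE-II in 15 (0.0549%). Among the 10 genes, ERSE was found in 4 and ERSE-II in 2. The elements are known from promoters of chaperone and degradation genes, so these counts describe the genes and test no enrichment. Each stretch below is written 5′ to 3′ on the strand of its gene and lies before the start site, and capitals mark the fixed letters of the element. In SDF2L1, CALR and the second site of HSP90B1 the element was on the opposite strand and so appears reversed and complemented.
HSPA5, chr9:125241371-125241429, minus strand: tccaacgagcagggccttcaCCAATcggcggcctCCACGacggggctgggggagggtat
XBP1, chr22:28800583-28800641, minus strand: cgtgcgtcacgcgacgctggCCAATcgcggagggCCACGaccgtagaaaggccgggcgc
CALR, chr19:12938364-12938422, plus strand: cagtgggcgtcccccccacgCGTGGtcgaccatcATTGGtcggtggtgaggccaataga
HSP90B1, chr12:103930196-103930359, plus strand: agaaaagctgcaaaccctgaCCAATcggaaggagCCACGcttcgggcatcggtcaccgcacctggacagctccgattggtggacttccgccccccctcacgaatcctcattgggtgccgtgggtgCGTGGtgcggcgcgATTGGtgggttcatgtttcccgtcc
HERPUD1, chr16:56932005-56932055, plus strand: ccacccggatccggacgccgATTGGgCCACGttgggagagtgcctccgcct
SDF2L1, chr22:21642094-21642144, plus strand: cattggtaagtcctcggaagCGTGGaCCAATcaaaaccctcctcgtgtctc

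The element began 66 bases before the start site in HSPA5 and 52 bases before it in XBP1. In CALR it lay farther upstream, its first base 225 before the start. HSP90B1 held 2 matches, beginning 194 and 89 bases upstream. In HERPUD1 and SDF2L1 the shorter element began 117 and 188 bases before the start. Neither element was matched in the windows of DNAJB9, PDIA4, ERN1 and ATF6, which says only that these letters are not in those windows. The plain CCAAT box, part of both elements, was in 9 of the 10 windows, all but that of ATF6, and in 35.7% of all promoters. A further site, TGACGTGG, was in 0.795% of all promoters and in none of the 10. These matches describe the sequence, and no binding was measured.

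**Figure D1:**
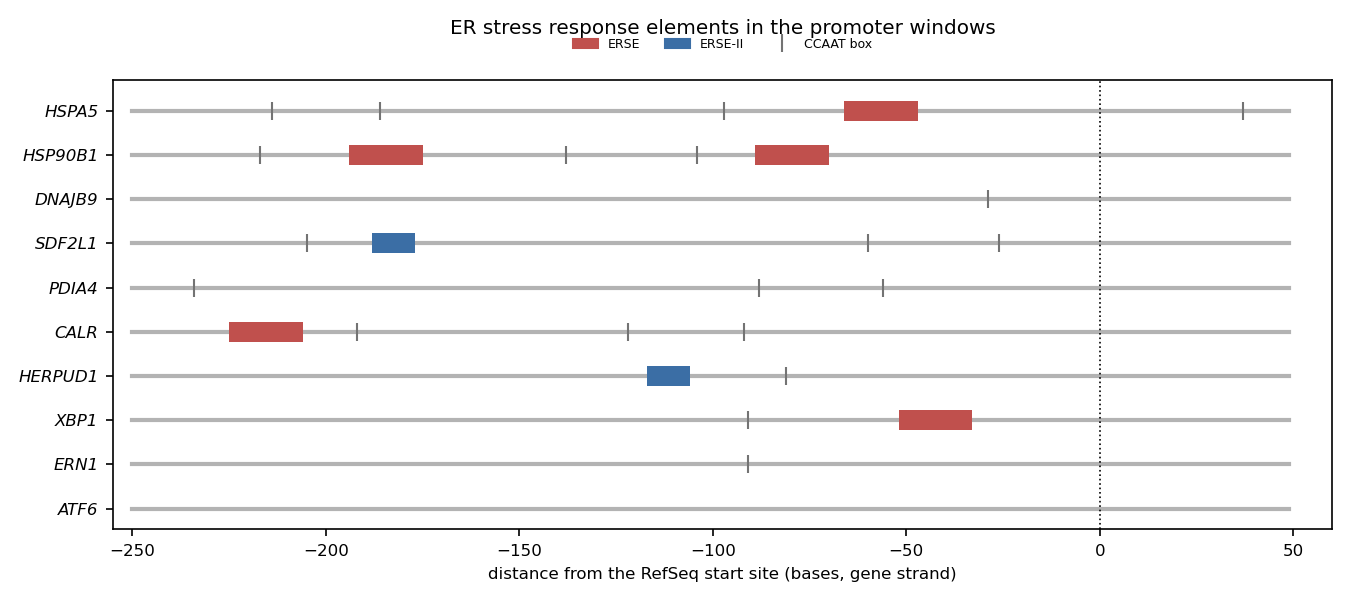
Elements in the promoter windows of the 10 genes, drawn by distance in bases from the RefSeq start site (0, dotted line) on the strand of the gene. Red boxes are ERSE, blue boxes ERSE-II and ticks CCAAT boxes outside them; 4 genes carry ERSE, 2 carry ERSE-II and 4 carry neither.

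In untreated cells the chaperone messages, other than DNAJB9, were far more abundant than those of the sensors. Per kilobase of the GENCODE canonical transcript, CALR, the calcium-binding lectin chaperone calreticulin, was the highest at 477 ± 9.09 CPM per kb (SD, n = 3). HSP90B1 (GRP94), the ER member of the HSP90 family, followed at 245 ± 17.5, and HSPA5 at 202 ± 12.3. Their ranges over the 3 libraries did not overlap, at 225 to 256 for HSP90B1 and 188 to 211 for HSPA5. SDF2L1, a partner of BiP, at 127 ± 8.08, and PDIA4 (ERp72), a protein disulfide isomerase, at 118 ± 3.91, had overlapping ranges of 118 to 134 and 114 to 122. XBP1 stood at 86 ± 4.03 and HERPUD1, a membrane protein of ER-associated degradation (ERAD), at 20.7 ± 2.51. ATF6 stood at 9.6 ± 0.147, DNAJB9 (ERdj4), a J-domain partner of BiP, at 4.39 ± 0.762, and ERN1 was the lowest at 0.0812 ± 0.0473. In the 2 h experiment, prepared with a different kit from total RNA, the authors' mean of normalized counts per kb was again highest for CALR (10419.6), HSP90B1 (4807) and HSPA5 (2479.8). PDIA4 stood at 1963, XBP1 at 608, SDF2L1 at 328, ATF6 at 292, HERPUD1 at 171 and DNAJB9 at 139.6 on that scale. ERN1 was not analysed there. HSP90B1 has an annotated near-copy, HSP90B2P, with 152 to 259 reads per library in the table, so a few of its reads may be placed on either gene.

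One hour of emetine changed the level of none of the 10 genes past the threshold used throughout, a Benjamini-Hochberg adjusted p under 0.05 in edgeR's quasi-likelihood test over 13776 genes. Over all genes, 2.65% were raised (365 genes) and 0.0436% lowered (6 genes). At an unadjusted p under 0.05, 2 of the 10 (CALR and HERPUD1) were lowered and 0 raised, against 6.95% and 14.9% of all genes. DESeq2's Wald test, after adjustment, lowered 1 (CALR) and, over all genes, lowered 156 and raised 820. Of the 10 estimates 9 lay below 0, with a median of -0.168 (log2, emetine over untreated) against 0.0303 for all genes, of which 46% lay below 0. In 6 of the 10, HSPA5, HSP90B1, PDIA4, CALR, HERPUD1 and ATF6, every emetine library was below every untreated library. Such a split was seen in 15.2% of all genes, and the opposite split in 19.5% of all genes and in none of the 10. In the unreplicated pair without s4U, the log2 ratio was -0.02 for both HSPA5 and HSP90B1 and -0.07 for CALR. It was -0.18 for PDIA4, -0.71 for HERPUD1 and 0.06 for ATF6, against a median of 0.00122 for all genes. In bulk RNA, fewer expressing cells and less RNA per cell cannot be told apart.

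HSPA5 stood at 827, 815 and 739 CPM in untreated replicates 1 to 3 and at 701, 702 and 678 in emetine replicates 1 to 3. The 3 emetine libraries lay close together and below the lowest untreated library, replicate 3. The log2 change was -0.20 (SE 0.096, 95% interval -0.41 to 0.02, edgeR adjusted p = 0.258).

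HSP90B1 had 712, 709 and 626 CPM in the untreated libraries and 618, 616 and 572 in the emetine libraries. Replicate 3 was the lowest of its group in both, and the gap between the groups was small against the spread within them. The change was -0.18 (SE 0.099, interval -0.41 to 0.04, edgeR adjusted p = 0.3).

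CALR was measured at 914, 921 and 888 CPM without and at 780, 793 and 710 with emetine. All emetine libraries were well below the untreated ones, replicate 3 the most. The change was -0.25 (SE 0.096, interval -0.47 to -0.04, edgeR adjusted p = 0.194). PDIA4 moved from 315, 337 and 325 CPM to 285, 291 and 301, a change of -0.16 (SE 0.085, interval -0.35 to 0.04, edgeR adjusted p = 0.294). Here replicate 3 was the highest of the emetine libraries.

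HERPUD1 had the lowest estimate of the 10. Its untreated libraries held 62.1, 50.8 and 64.1 CPM and its emetine libraries 49, 47.2 and 42.9. Untreated replicate 2 was the low library of its group and only just above the emetine libraries. The change was -0.34 (SE 0.11, interval -0.60 to -0.09, edgeR adjusted p = 0.151). In the libraries without s4U it stood at 71.4 CPM untreated and 43.6 with emetine, a log2 ratio of -0.71 (exact interval -0.82 to -0.61, counting error only). That pair has no replicate, and 2.09% of 13776 genes had a ratio as low or lower.

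SDF2L1 (chr22:21642302-21644299, hg38) stood at 106, 97.2 and 110 CPM untreated and at 107, 83.3 and 68.8 with emetine, so emetine replicate 1 lay within the untreated range and replicate 3 far below it. The change was -0.28 (SE 0.15, interval -0.61 to 0.06, edgeR adjusted p = 0.294). Its transcript, of 825 bases, is the shortest of the 10, and replicate 3 is the library whose levels ran with length; without it the change was -0.13, and with the length trend removed -0.03. XBP1 had 154, 146 and 161 CPM untreated and 150, 153 and 134 with emetine. The groups overlapped, at a change of -0.08 (SE 0.091, interval -0.28 to 0.13, edgeR adjusted p = 0.614).

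DNAJB9 was low throughout, with 8.93, 10.3 and 12.6 CPM untreated and 9.14, 10.7 and 10.3 with emetine. The emetine values fell inside the untreated range, and the change was -0.07 (SE 0.16, interval -0.42 to 0.28, edgeR adjusted p = 0.798). Without s4U it had 13.6 CPM untreated and 8.87 with emetine, from 321 and 282 reads, a log2 ratio of -0.62 (exact interval -0.85 to -0.38, counting error only). This pair has no replicate either, and 3.05% of 13776 genes had a ratio as low or lower. ATF6 had 71.1, 71.1 and 73 CPM untreated and 65.4, 65.5 and 70 with emetine. The separation was narrow, at a change of -0.10 (SE 0.08, interval -0.28 to 0.08, edgeR adjusted p = 0.457).

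ERN1 was near the limit of detection. It had 28, 9 and 14 reads in the untreated libraries and 29, 27 and 127 in the emetine libraries. Only emetine replicate 3, the library that stood apart, was high, and the other 5 libraries together held few more than the 100 reads that the filter asked for. Its fitted change of 1.68 (SE 0.81, interval -0.14 to 3.51, edgeR adjusted p = 0.25) rests on those 127 reads; without that library it was 0.27 (edgeR adjusted p = 0.743). The libraries without s4U held 19 and 25 reads.

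**Figure D2:**
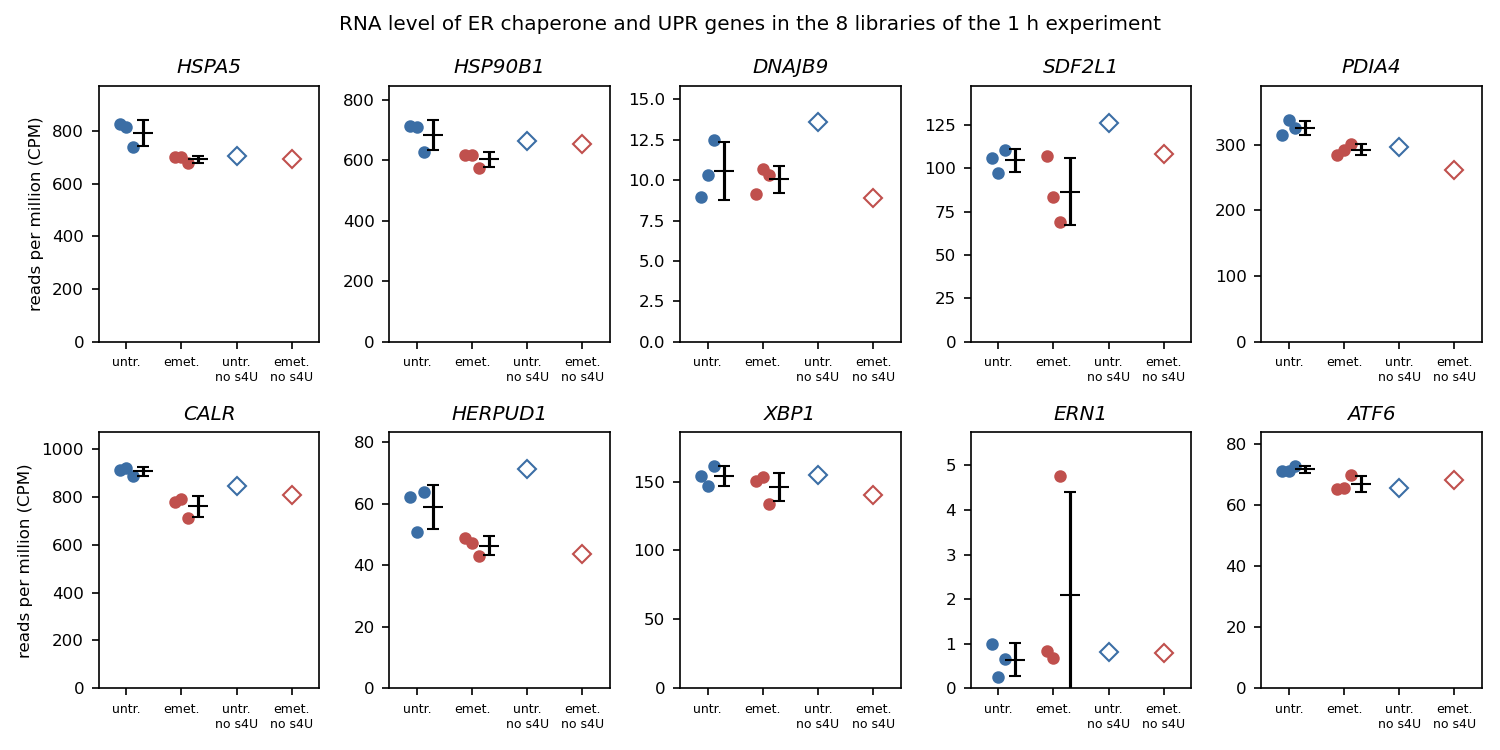
Level of each gene in CPM (y axis from 0) in untreated (untr., blue circles) and emetine (emet., red circles) libraries with s4U, with mean and SD in black (n = 3), and in the single libraries without s4U (open diamonds). Emetine libraries lie below all untreated libraries with s4U in 6 of the 10 genes, and ERN1 is high in 1 emetine library only.

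The calls depended on emetine replicate 3 and on the scaling. Without that library CALR (-0.20, edgeR adjusted p = 0.034) and HERPUD1 (-0.28, adjusted p = 0.0427) were lowered, while over all genes 1367 were then raised and 525 lowered. Scaled to the spike-in RNAs instead of to the genes, the median of all genes moved to 0.71 and that of the 10 genes to 0.502. None of the 10 then lay below 0, although their median still lay below that of all genes. The signs of the level changes above are therefore relative to the bulk of genes. Spike-in reads were 0.371%, 0.814% and 0.498% of gene reads in emetine replicates 1 to 3, and 0.587% to 0.898% in the untreated libraries. Spike-in scaling is thus imprecise: the SE of HSPA5 was 0.446 under it, against 0.096.

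The 10 genes differed widely in how fast their RNA turned over. A gene was tested for its fraction new where each of the 6 libraries held at least 100 of its reads, which kept 10763 genes and 9 of the 10, all but ERN1. In untreated cells 82.2% ± 3.09 (SD, n = 3) of DNAJB9 reads were new after 1 h, higher than in 99.5% of genes tested. HERPUD1 at 42.9% ± 7.13 and XBP1 at 36.1% ± 5.96 followed, above 92.9% and 89.5% of genes. HSPA5 lay near the middle at 13.5% ± 1.36, above 54.8% of genes. The remaining 5, SDF2L1, ATF6, PDIA4, HSP90B1 and CALR, lay between 6.45% and 7.27%, above 23.3% to 27.9% of genes.

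Read as half-lives under constant synthesis and immediate labeling, these values correspond to 24.1 ± 2.41 min for DNAJB9, 76.2 ± 18.5 min for HERPUD1 and 95 ± 19 min for XBP1. HERPUD1 and XBP1 do not differ beyond their spread. HSPA5 came to 289.6 ± 32.1 min. For ATF6, SDF2L1, PDIA4, CALR and HSP90B1 the means ran from 563 to 636 min with SDs of 95.7 to 134 min, so their order is not resolved. The J-domain partner, the degradation factor and the transcription factor were thus the short-lived messages of the group. HSPA5, among the 3 most abundant, was intermediate and near the median of all genes (321 min), and the low-abundance sensor ATF6 stood with the long-lived chaperones.

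The raw conversions show the same order without the mixture fit. Reads with 2 or more conversions made up 66.5% to 79.1% of DNAJB9 reads, 28% to 39.3% of HERPUD1 reads and 26.4% to 34.7% of XBP1 reads in the untreated libraries with s4U. For CALR they made up 3.97% to 5.09%. In the libraries without s4U the share was 0.0351% of 19940 CALR reads untreated (Wilson 95% interval 0.017% to 0.0725%). It was 0 of 321 DNAJB9 reads, which allows a share of up to 0.935%, and 1 of 3642 XBP1 reads, or 0.0275% (Wilson interval 0.00485% to 0.155%). Intervals and limits cover counting error only.

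Emetine changed the fraction new of none of the 9 genes past the threshold (limma on the logit scale). Over all genes 4.83% were lowered and 0.214% raised. At an unadjusted p under 0.05, 2 of the 9 (SDF2L1 and XBP1) were lowered and 0 raised, against 15.4% and 1.15% of all genes. All 9 estimates lay below 0, with a median of -0.139 against -0.16 for all genes, of which 75.6% lay below 0. In 3 genes, DNAJB9, SDF2L1 and XBP1, every emetine library was below every untreated library, a split seen in 16.8% of all genes. The opposite split was seen in 2.19% of all genes and in none of the 9.

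XBP1 had 30.9%, 34.8% and 42.6% new in the untreated libraries and 24.4%, 25.1% and 25.7% in the emetine libraries. The emetine libraries were almost alike and all below the lowest untreated one. The logit change was -0.52 (SE 0.22, interval -0.95 to -0.09, limma adjusted p = 0.173). With each library centred on its median gene it was -0.39 and passed the threshold (limma adjusted p = 0.0357), as it did without untreated replicate 1 (-0.63, adjusted p = 0.0143). Over all genes, 748 were lowered when centred and 2524 without untreated replicate 1.

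DNAJB9 had 79.8%, 85.7% and 81.2% new untreated and 70.1%, 75.3% and 74.7% with emetine. The groups were separate, with a logit change of -0.53 (SE 0.27, interval -1.06 to 0.01, limma adjusted p = 0.311). SDF2L1 had 5.89%, 8.07% and 7.84% untreated and 3.5%, 4.19% and 5.2% with emetine. Emetine replicate 3 and untreated replicate 1 came closest, and the change was -0.56 (SE 0.22, interval -1.01 to -0.12, limma adjusted p = 0.148). Without untreated replicate 1 both passed, DNAJB9 at -0.61 (adjusted p = 0.0323) and SDF2L1 at -0.67 (adjusted p = 0.0242), and 2524 genes in all were then lowered.

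For the other 6 genes the groups overlapped. HERPUD1 had 34.7%, 46.2% and 47.9% untreated and 37.1%, 42.3% and 38.6% with emetine, a logit change of -0.14 (interval -0.60 to 0.31). Its untreated replicate 1 was the lowest of the 6 libraries. HSPA5 had 12%, 13.6% and 14.8% untreated and 12.8%, 13.3% and 13.2% with emetine, a change of -0.03 (interval -0.44 to 0.38). CALR, HSP90B1, PDIA4 and ATF6 lay between 5.39% and 9.25% in all 6 libraries, and their limma adjusted p-values ran from 0.838 to 0.998. The 95% intervals of these 4 reached from -0.58 to 0.43.

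**Figure D3:**
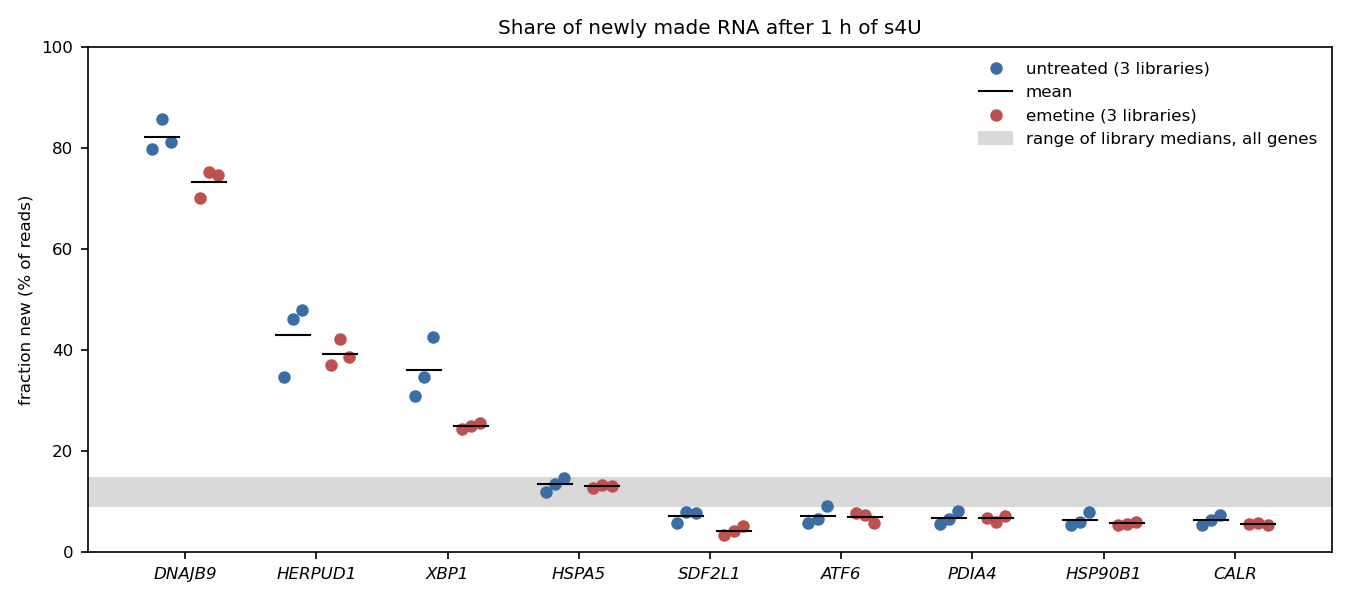
Fraction new in percent of reads (y axis) for the 9 genes tested, in 3 untreated (blue) and 3 emetine (red) libraries, with the mean as a bar and the range of the library medians over all genes in grey. DNAJB9, HERPUD1 and XBP1 lie above the grey band in every library, and the emetine points of DNAJB9, XBP1 and SDF2L1 lie below all their untreated points.

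Splitting the level into newly made and pre-existing RNA gave a call for SDF2L1 only. Its newly made RNA came to 6.24, 7.85 and 8.65 CPM in the untreated libraries and to 3.74, 3.49 and 3.57 in the emetine libraries. The emetine values were nearly identical and all well below the untreated ones. Each is the product of a level that fell from emetine replicate 1 to 3 (107, 83.3 and 68.8 CPM) and a fraction new that rose (3.5%, 4.19% and 5.2%). Reads with 2 or more conversions numbered only 83, 96 and 54 in these libraries. Newly made SDF2L1 RNA fell by 0.97 on the log2(CPM + 0.5) scale (SE 0.26, interval -1.48 to -0.46, limma adjusted p = 0.0287). With the 0.5 CPM added, that is 0.511 times the untreated value. The means without it were 7.58 CPM untreated and 3.6 CPM with emetine. Over all genes 0.632% were lowered (68 genes) and 0.26% raised (28 genes), and SDF2L1 was the only one of the 9 among them. The estimate was steady when single libraries were left out, at -1.09 to -0.87, but the call was not. It was lost without untreated replicate 2 (adjusted p = 0.588), untreated replicate 3 (0.0866) or emetine replicate 1 (0.341), 2 (0.218) or 3 (0.255), all by limma, and was kept without untreated replicate 1 (0.00186). With spike-in scaling the change was -0.39 (limma adjusted p = 0.725).

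XBP1 had 47.7, 51 and 68.5 CPM of newly made RNA untreated and 36.7, 38.5 and 34.3 with emetine. All emetine libraries were lower, at a change of -0.59 (SE 0.21, limma adjusted p = 0.177). Newly made HERPUD1 RNA stood at 21.6, 23.4 and 30.7 CPM untreated and at 18.2, 20 and 16.5 with emetine, a change of -0.45 (SE 0.23, limma adjusted p = 0.406). For CALR the values were 50.3, 59.7 and 65.4 untreated and 44.1, 45.9 and 38.6 with emetine, a change of -0.44 (interval -0.85 to -0.02, limma adjusted p = 0.374). The other 5 genes had estimates of -0.33 to -0.12. At an unadjusted limma p under 0.05, 4 of the 9 (SDF2L1, CALR, HERPUD1 and XBP1) were lowered and 0 raised, against 10.6% and 1.64% of all genes. All 9 estimates lay below 0, with a median of -0.332 against -0.138 for all genes, of which 69% lay below 0. In 6 of the 9 (HSPA5, HSP90B1, SDF2L1, CALR, HERPUD1 and XBP1) every emetine library was below every untreated one, against 11.3% of all genes. The opposite split, in 3.31% of all genes, was in none of the 9.

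In pre-existing RNA none of the 9 passed the threshold, while 7.3% of all genes were raised and 0.0929% lowered. At an unadjusted limma p under 0.05, 1 (DNAJB9) was raised and 1 (CALR) lowered, against 19.4% and 7.07% of all genes. DNAJB9 had the highest estimate. Its pre-existing RNA stood at 1.81, 1.47 and 2.36 CPM untreated and at 2.73, 2.64 and 2.61 with emetine. Every emetine library was higher, by 0.43 on the log2(CPM + 0.5) scale (SE 0.19, interval 0.01 to 0.85, limma adjusted p = 0.185). Few reads underlie it: those without a conversion numbered 56, 55 and 55 untreated and 99, 107 and 79 with emetine. In 4 of the 9 (HSPA5, PDIA4, CALR and ATF6) every emetine library was lower. For pre-existing RNA the share of all genes with either split was not counted. XBP1 had 107, 95.5 and 92.4 CPM untreated and 114, 115 and 99.3 with emetine, a change of 0.15 (interval -0.08 to 0.38, limma adjusted p = 0.338). The other 7 estimates lay between -0.25 and -0.10. For XBP1, then, the estimate of newly made RNA was below 0 and that of pre-existing RNA above 0, and its level overlapped between the groups. Without emetine replicate 3, pre-existing XBP1 RNA passed as raised (0.22, limma adjusted p = 0.0481) and CALR as lowered (-0.19, adjusted p = 0.0347). Over all 10763 genes, 1474 were then raised and 383 lowered, against 786 and 10 with all libraries.

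**Figure D4:**
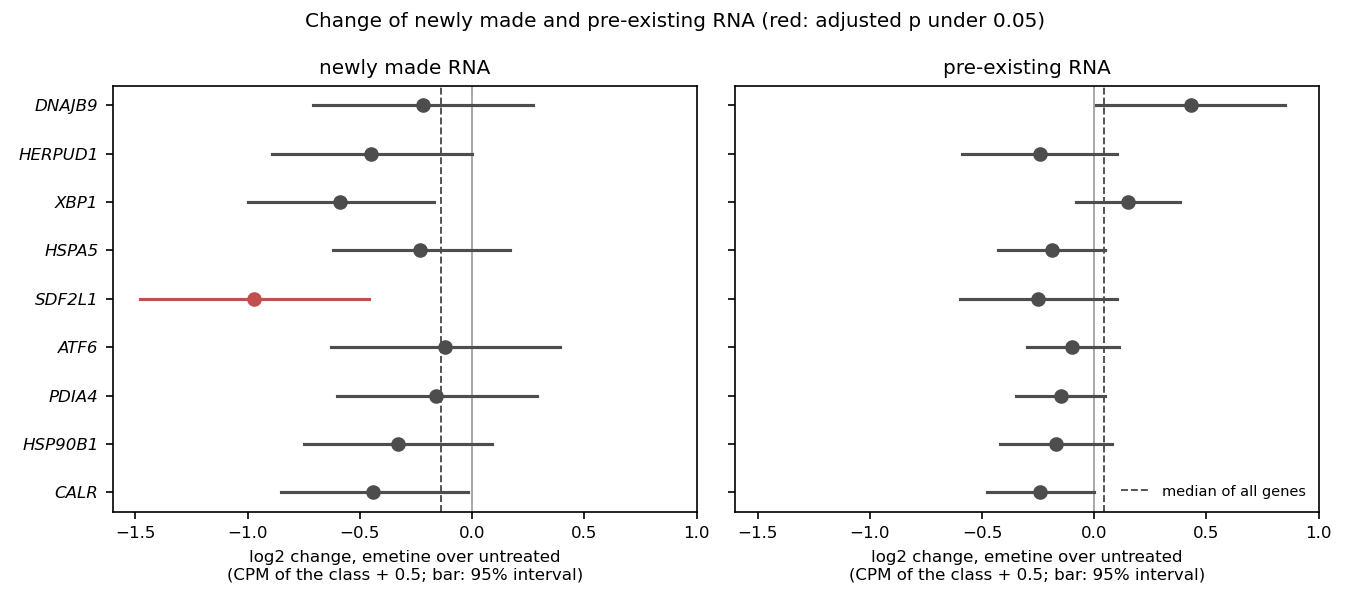
Log2 change of newly made (left) and pre-existing (right) RNA, emetine over untreated, on the log2(CPM + 0.5) scale, with 95% intervals as bars, for the 9 genes tested. Newly made SDF2L1 RNA, in red, is the only value past the threshold, and dashed lines mark the medians of all genes at -0.138 and 0.0421.

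The wider ER and UPR machinery was read from 6 lists of other genes. In 5 of them, 86 genes of ER folding, degradation, translocation and UPR signaling, of which 85 were tested for level, none was raised and none lowered by edgeR. At an unadjusted p under 0.05, 4 were raised and 20 lowered, against 14.9% and 6.95% of all genes, and DESeq2 lowered 3 after adjustment (156 over all genes) and raised 0. Without emetine replicate 3, edgeR lowered 6 (PPIB, PDIA6, TXNDC12, OS9, SEC61A1 and TMBIM6) and raised TRAF2, with 525 lowered and 1367 raised over all genes. With the length trend removed it lowered 10 (CANX, PPIB, PDIA6, DERL1, OS9, SEC61A1, SSR3, SRPRB, SPCS3 and TMBIM6), with 345 lowered over all genes. Every emetine library was below every untreated one in 39 of the 85 and above in 7, against 15.2% and 19.5% of all genes.

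Among 14 ER chaperones and co-chaperones the median level change was -0.17. PPIB, a lumenal prolyl isomerase, had the lowest, at 627 ± 33.7 CPM untreated and 462 ± 96.9 with emetine (SD, n = 3), or -0.44 (edgeR adjusted p = 0.167). SIL1, the nucleotide exchange factor of BiP, followed by p at -0.31 (edgeR adjusted p = 0.18). By fraction new the leading pair were FKBP2, another prolyl isomerase (-0.40, limma adjusted p = 0.452), and DNAJC3, a J-domain protein (0.24, limma adjusted p = 0.661). Among 15 thiol oxidoreductases the median was -0.2, with TXNDC12 at -0.32 (edgeR adjusted p = 0.148) and ERO1B, an oxidase of protein disulfide isomerases that also carried ERSE, at 0.38 (edgeR adjusted p = 0.166). By fraction new PDIA5 (0.39, limma adjusted p = 0.357) and ERP44 (0.32, limma adjusted p = 0.584) led, with no call.

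Of 20 genes of ERAD, 11 had level estimates below 0 (median -0.059), against 46% of all genes. OS9, a lectin that delivers glycoproteins for degradation, stood at 200 ± 4.61 CPM untreated and 166 ± 2.78 with emetine, or -0.27 (edgeR adjusted p = 0.123). EDEM3, a mannosidase, stood at 0.45 (edgeR adjusted p = 0.224). In fraction new, UFD1L (0.27, limma adjusted p = 0.651) and EDEM3 (0.25, limma adjusted p = 0.657) led. The list of translocation and signal peptide cleavage was the most uniform in sign, with 21 of 23 level estimates below 0 (median -0.19), against 46% of all genes. In 15 of the 23 every emetine library was below every untreated one, against 15.2% of all genes. SPCS2, a signal peptidase subunit, had -0.39 (edgeR adjusted p = 0.179), and SRPRB, of the signal recognition particle receptor, -0.25 (edgeR adjusted p = 0.2). In fraction new SEC61A2 (-0.43, limma adjusted p = 0.314) and SSR3 (-0.27, limma adjusted p = 0.621) led.

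Of 14 UPR sensors, proteases and cofactors, 12 were tested for fraction new and 1 was lowered, against 4.83% of all genes. TRAF2, an adaptor that IRE1 recruits, had 20.2% ± 6.64 new untreated and 10.9% ± 0.994 with emetine, a logit change of -0.69 (limma adjusted p = 0.0398). Its pre-existing RNA was raised, from 28.9 ± 3.53 to 39.7 ± 0.578 CPM (0.46, limma adjusted p = 0.0439), and its level stood at 0.29 (edgeR adjusted p = 0.19). That was 1 of 12 genes raised in pre-existing RNA, against 7.3% of all genes. The call in fraction new was lost when any single library other than untreated replicate 1 was left out, and with a minimum of 50 reads. That in pre-existing RNA was lost when any single library other than emetine replicate 3 was left out, with spike-in scaling and when centred on library medians. NFYB, a subunit of the factor that binds the CCAAT box, had a fraction new change of -0.44 (limma adjusted p = 0.258). TMBIM6, a membrane protein of the ER, had a level change of -0.25 (edgeR adjusted p = 0.173).

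The list of PERK and ATF4 targets was the only one with level calls, 2 of 11 raised and none lowered, against 2.65% and 0.0436% of all genes. ATF3, a stress-induced transcription factor, rose from 23 ± 4.27 to 86.4 ± 4.23 CPM (1.91, SE 0.14, edgeR adjusted p = 0.000845), and its newly made RNA rose by 2.17 (limma adjusted p = 1.5e-19). PPP1R15A (GADD34), which directs dephosphorylation of eIF2, rose from 25.2 ± 2.58 to 37.4 ± 3.31 CPM (0.57, SE 0.11, edgeR adjusted p = 0.0381). DDIT3 (CHOP) stood at 12.6 ± 2.08 and 22.5 ± 4.64 CPM (0.84, edgeR adjusted p = 0.0502). The rest of the list had no level call. PPP1R15B stood at 0.31, CEBPG at 0.19, CEBPB at 0.05, ATF4 at 0.03 and TRIB3 at 0.02. ASNS stood at -0.20, and CHAC1 and NUPR1 each at -0.21. Whether PERK was active was not tested. ATF3 alone was called in level whichever single library was left out, and also with spike-in scaling.

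In fraction new 3 of 10 tested PERK and ATF4 targets were lowered, against 4.83% of all genes. CHAC1, which degrades glutathione, fell from 70.6% ± 8.24 to 40.9% ± 2.96 new (logit -1.27, limma adjusted p = 0.000304), DDIT3 from 76.7% ± 3.53 to 51.6% ± 1.95 (-1.14, limma adjusted p = 0.00198), and PPP1R15A from 79.1% ± 4.43 to 60.4% ± 1.4 (-0.93, limma adjusted p = 0.019). The CHAC1 call held whichever single library was left out, that of DDIT3 was lost without emetine replicate 2, and that of PPP1R15A was lost without any single library other than untreated replicate 1 and with a minimum of 50 reads. In untreated cells DNAJB9, at 82.2%, had a fraction new near that of these 3. DDIT3, PPP1R15A and ATF3 were raised in pre-existing RNA, by 1.73, 1.43 and 1.39 (limma adjusted p = 0.00251, 0.00542 and 0.00809), while DNAJB9, at 0.43, was not called. The ATF3 call there was lost without untreated replicate 3. Whether DNAJB9 differed from them was not tested. PPP1R15B, of the same list, was also raised in pre-existing RNA, a call lost without untreated replicate 2 or 3. That made 4 of 10 tested, against 7.3% of all genes. Pre-existing ATF3 RNA came to 24.7 ± 0.57 CPM with emetine, against 23 ± 4.27 CPM for its whole untreated level. Whether all of these ATF3 reads predate the treatment was not tested.

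**Figure D5:**
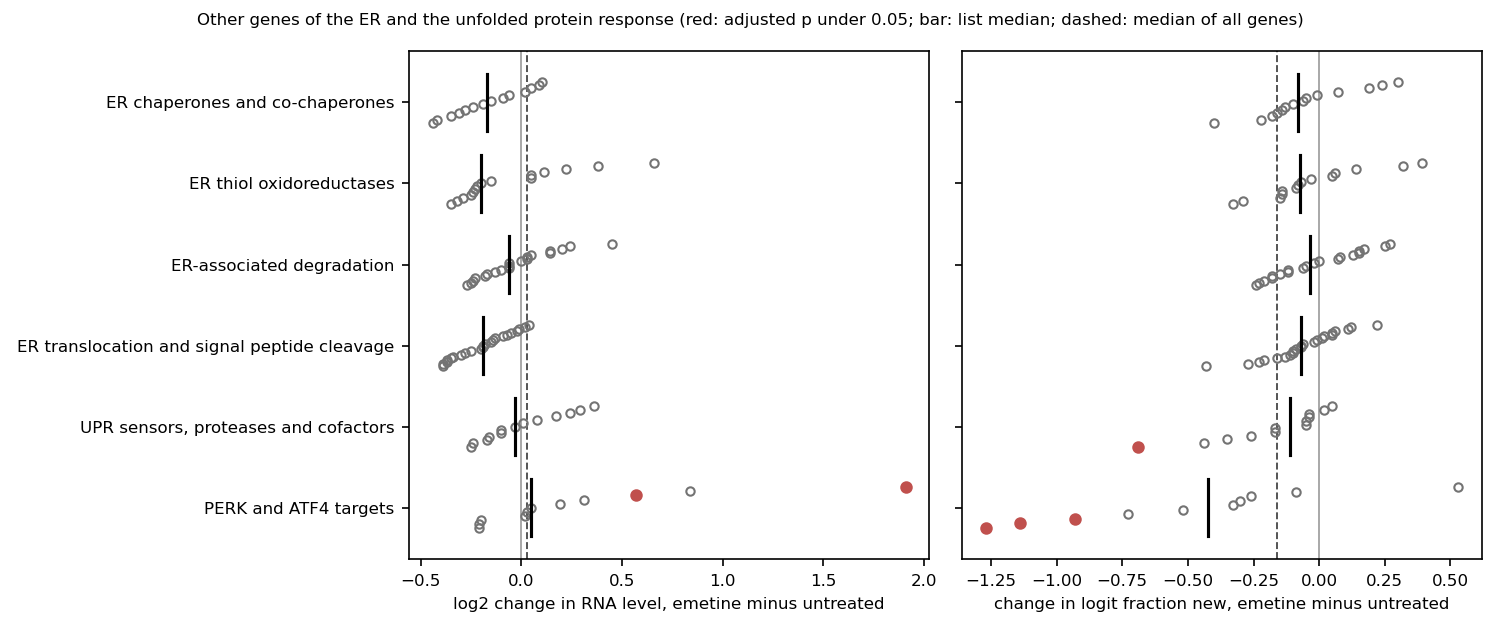
Change in level (left, log2) and in fraction new (right, logit), emetine minus untreated, for each tested gene of the 6 lists (points), with list medians as black bars and medians of all genes as dashed lines (0.0303 and -0.16). Calls, in red, are ATF3 and PPP1R15A in level and TRAF2, CHAC1, DDIT3 and PPP1R15A in fraction new, and the first 5 lists hold no level call.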

How the data were processed

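TL-seq was measured in 8 libraries of 1 h and 9 of 2 h. The authors trimmed reads with cutadapt, mapped them to hg38 with HISAT in its T-to-C mode and deposited, for the 1 h libraries, read counts by library, gene, number of T positions and number of T-to-C conversions. Those 2 numbers per read were used as deposited. For the 2 h libraries the authors deposited fold changes and p-values of their own comparisons, which were not used, and a mean signal over all libraries (counts normalized to spike-ins), which was. Members and gene lists were chosen with earlier results of these data known.

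Background conversion rates came from the library without s4U of the same treatment, and a binomial mixture fitted by expectation-maximization gave the new-read rate per library (8.49% to 9.53% of T positions) and the fraction new per gene. Genes with over 100 reads over the 6 libraries with s4U entered edgeR 4.0.16 (TMM, quasi-likelihood). With a minimum of 100 reads per library, limma 3.58.1 was run on the logit fraction new (bounded to 0.001 and 0.999) and on log2(CPM + 0.5) of newly made and pre-existing RNA. The labels' groups were compared without covariates, and p-values were adjusted over all genes tested. Scripts were tested on simulated data (R 4.3.3, Python 3.11.15). Positions and lengths came from GENCODE and promoters from RefSeq (GRCh38.p14), matched by symbol for 10 of 10 genes. The text names all 10 genes and, from each list, the 2 genes with the smallest p in level and the 2 in fraction new. PPP1R15B, PDIA6, SEC61A1, CANX, DERL1 and SPCS3 were named after their values were seen. So were ATF4, TRIB3, ASNS, CEBPB, CEBPG and NUPR1. Total reads per library set the counting precision. Alternatives changed scaling, filters, pseudocount, rates, weights, test (DESeq2 1.42.0) and libraries.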

Additional observations from a re-analysis of the deposited data

How the results depend on the processing

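The 8 counts of called genes among the 10 (raised and lowered in level, fraction new, newly made and pre-existing RNA) changed under some alternatives, and the cause was not tested. With spike-in scaling, 1 gene (ERN1) was raised in level and 0 were lowered in newly made RNA, against 60 and 0 over all genes. DESeq2's Wald test lowered 1 in level (CALR), against 156 over all genes. Removing the length trend lowered 2 (HSPA5 and HERPUD1), against 345 over all genes. Centred on library medians, 1 was lower in fraction new (XBP1) and 2 in newly made RNA (SDF2L1 and XBP1). Over all 10763 genes, centring lowered 748 in fraction new and 251 in newly made RNA. Leaving out single libraries gave 0 to 2 lowered in level and 0 to 3 lower in fraction new. It gave 0 to 4 lowered in newly made RNA, and 0 to 1 raised and 0 to 1 lowered in pre-existing RNA. The highest count came without emetine replicate 3 for level and pre-existing RNA and without untreated replicate 1 for the others. Without emetine replicate 3, 525 of all genes were lowered in level, and 1474 were raised and 383 lowered in pre-existing RNA. Without untreated replicate 1, 2524 of all genes were lowered in fraction new and 1733 in newly made RNA, the latter against 68 with all libraries. The remaining filters, pseudocounts, rates and weights left all 8 counts as they were.

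Signs turned mostly with spike-in scaling, under which the median gene stood at 0.71 in level, 0.412 in newly made and 0.656 in pre-existing RNA. In level HSPA5 was then at 0.48, HSP90B1 at 0.49, DNAJB9 at 0.59, SDF2L1 at 0.46, PDIA4 at 0.52, CALR at 0.42, HERPUD1 at 0.36, XBP1 at 0.60 and ATF6 at 0.58. The SEs of these level changes were 0.445 to 0.488. In newly made RNA HSPA5 was at 0.40, HSP90B1 at 0.29, DNAJB9 at 0.38, PDIA4 at 0.46, CALR at 0.18, HERPUD1 at 0.17, XBP1 at 0.04 and ATF6 at 0.46. In pre-existing RNA HSPA5 was at 0.44, HSP90B1 at 0.46, SDF2L1 at 0.37, PDIA4 at 0.47, CALR at 0.38, HERPUD1 at 0.38 and ATF6 at 0.53. With the length trend removed XBP1 was at 0.04 in level. Centred, the fraction new changes were 0.10 (HSPA5), 0.01 (HSP90B1), 0.12 (PDIA4) and 0.10 (ATF6), and newly made ATF6 RNA was at 0.01. PDIA4 was at 0.00 with the new-read rate lowered by 20% and when weighted by reads, and ATF6 at 0.02 when weighted. Single libraries moved DNAJB9 in level from -0.18 to 0.06, fraction new of HSPA5 from -0.09 to 0.02, HSP90B1 from -0.21 to 0.00, PDIA4 from -0.10 to 0.11 and ATF6 from -0.13 to 0.12, and newly made ATF6 RNA from -0.26 to 0.07.

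With the replicate number as a block, 0 of the 10 genes were raised or lowered in level, 0 of 9 changed in fraction new and 1 of 9 (SDF2L1, -0.97, limma adjusted p = 0.0289) was lowered in newly made RNA; over all genes 75 were raised in level against 365. The deviations of same-numbered libraries from their group means correlated at 0.0707, -0.0123 and -0.175 in level. In fraction new they correlated at 0.0560, 0.00251 and 0.0221, and the labels tie the numbers to nothing shared.

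Over all genes the level counts ranged from 4 to 1367 raised and 0 to 525 lowered when 1 library was left out, and were 820 raised and 156 lowered with DESeq2. With 3 libraries a group, the level intervals of the 9 genes other than ERN1 had lower ends of -0.61 to -0.28, so falls of that size lay within the error, and ERN1 had too few reads to be read at this depth.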
